A study of Mus musculus with 4 samples.

Results

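The genes described here encode ADAM17, 5 other ADAM metalloproteases and 4 proteins that control ADAM17. Their RNA was measured in the back skin of mice aged 10 days with a keratinocyte-specific deletion of Adam17. The 10 genes were Adam17, Adam8, Adam9, Adam10, Adam15, Adam19, Timp3, Rhbdf1, Rhbdf2 and Furin, and the array held 16 probes under these names among 41174 gene probes. Of these 16 probes, 13 passed the signal filter, and they covered 9 of the 10 genes. The conditional knockout animals, called cKO, were Adam17flox/flox with the Krt14-Cre transgene, which is driven by the keratin 14 promoter of basal epidermal and outer follicle keratinocytes. The controls were littermates without Cre, so an effect of Cre cannot be told apart from that of the deletion. By the stated cross (Adam17flox/+ with Krt14-Cre by Adam17flox/flox) a control carried 1 or 2 floxed alleles, and the labels do not say which. There were 2 cKO animals and 2 controls, 1 of each genotype from each of 2 litters, all on a mixed 129Sv and C57BL/6 background. One whole-skin RNA sample per animal was hybridised to a 1-colour Agilent array.

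ADAM proteases sit in the cell membrane and cut the outer part off other membrane proteins, a step called shedding. ADAM17 releases ligands of the EGF receptor, tumour necrosis factor and several receptors, and in the epidermis it feeds EGF receptor signalling. It leaves the endoplasmic reticulum only with a catalytically inactive rhomboid partner, iRhom1 (Rhbdf1) or iRhom2 (Rhbdf2), loses its prodomain to furin-type convertases on the way, and is inhibited by TIMP3 outside the cell.

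Levels are given as log2 signal relative to the 75th percentile of the array, which lies at 0. Differences are cKO minus control on this scale. Levels of different probes are not set against each other, since probes differ in brightness for the same RNA amount. Per array, 53.7% to 56.6% of gene spots were well above background, the 75th percentile lay at signals of 751 to 784, and no gene spot was saturated (0 on each array). Keratinocyte markers were bright: Krt14 measured 7.55 and 7.54 in cKO skin against 7.31 and 7.40 in controls (litter 1 and litter 2 in each case).

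The probes on which the main values rest are shown by their first 30 of 60 bases, as printed in the array files, because the position of a probe decides what it can say about a floxed gene. Positions are those of the files in mm9. Both Adam17 probes lie on the minus strand of chromosome 12, at chr12:21330653-21330712 (probe 1) and chr12:21330545-21330604 (probe 2), 48 bases apart. The Adam8 probe lies at chr7:147164928-147164987, minus strand. The probes filed under Furin lie at chr7:87534108-87534167 (probe 1, minus strand) and chr7:87551118-87551177 (probe 2, plus strand).
Adam17 probe 1: tcaactaaaagaggagcaagagaaacctgc
Adam17 probe 2: atctacattaagagcagtcctttccaagag
Adam8 probe: atgagacttaggaaaggaaaagacgtcgtt
Furin probe 1: caggcctggcattgttggttctatttaatg
Furin probe 2: gacaatgagccatttagtgttcagagcata

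The Adam17 signal in cKO skin was 68.5% of the control level with probe 1 and 69.0% with probe 2. Probe 2, the brighter one, measured -0.14 and -0.12 in cKO skin of litters 1 and 2, against 0.44 and 0.37 in the controls. Probe 1 measured -0.19 and -0.18 in cKO skin, against 0.42 and 0.30 in the controls. Both cKO animals lay below both controls with either probe, and the cKO animals lay closer to each other than the controls did. The cKO signal was 67.0% of control in litter 1 and 71.1% in litter 2 with probe 2, and 65.7% and 71.5% with probe 1. The gene averaged -0.13 ± 0.0092 in cKO skin and 0.40 ± 0.052 in control skin (SD, n = 2 each), a difference of -0.54 with a 95% interval of -0.76 to -0.31.

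That difference did not pass the test over 15552 genes (adjusted p = 0.114, limma), and 7.25% of all genes tested differed by more in either direction. Whole skin also holds dermal and immune cells, in which the keratin 14 promoter is silent, and in whole skin fewer cells of a type and less RNA per cell cannot be told apart. All 7 basal keratinocyte markers passed the filter. In each litter 6 lay higher in cKO skin and 1, Krt15, lower (median difference 0.16). Over all genes, 72.5% had the same sign in both litters. The summed signal of the 7 markers, in units of the 75th percentile, was 711 and 692 in cKO skin against 647 and 657 in controls. That sum rests mostly on Krt5 and Krt14. The part of these markers in the Adam17 value was not tested. The floxed exon is not stated in the labels, and a probe that lies outside it would not check the deletion.

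**Figure D1:**
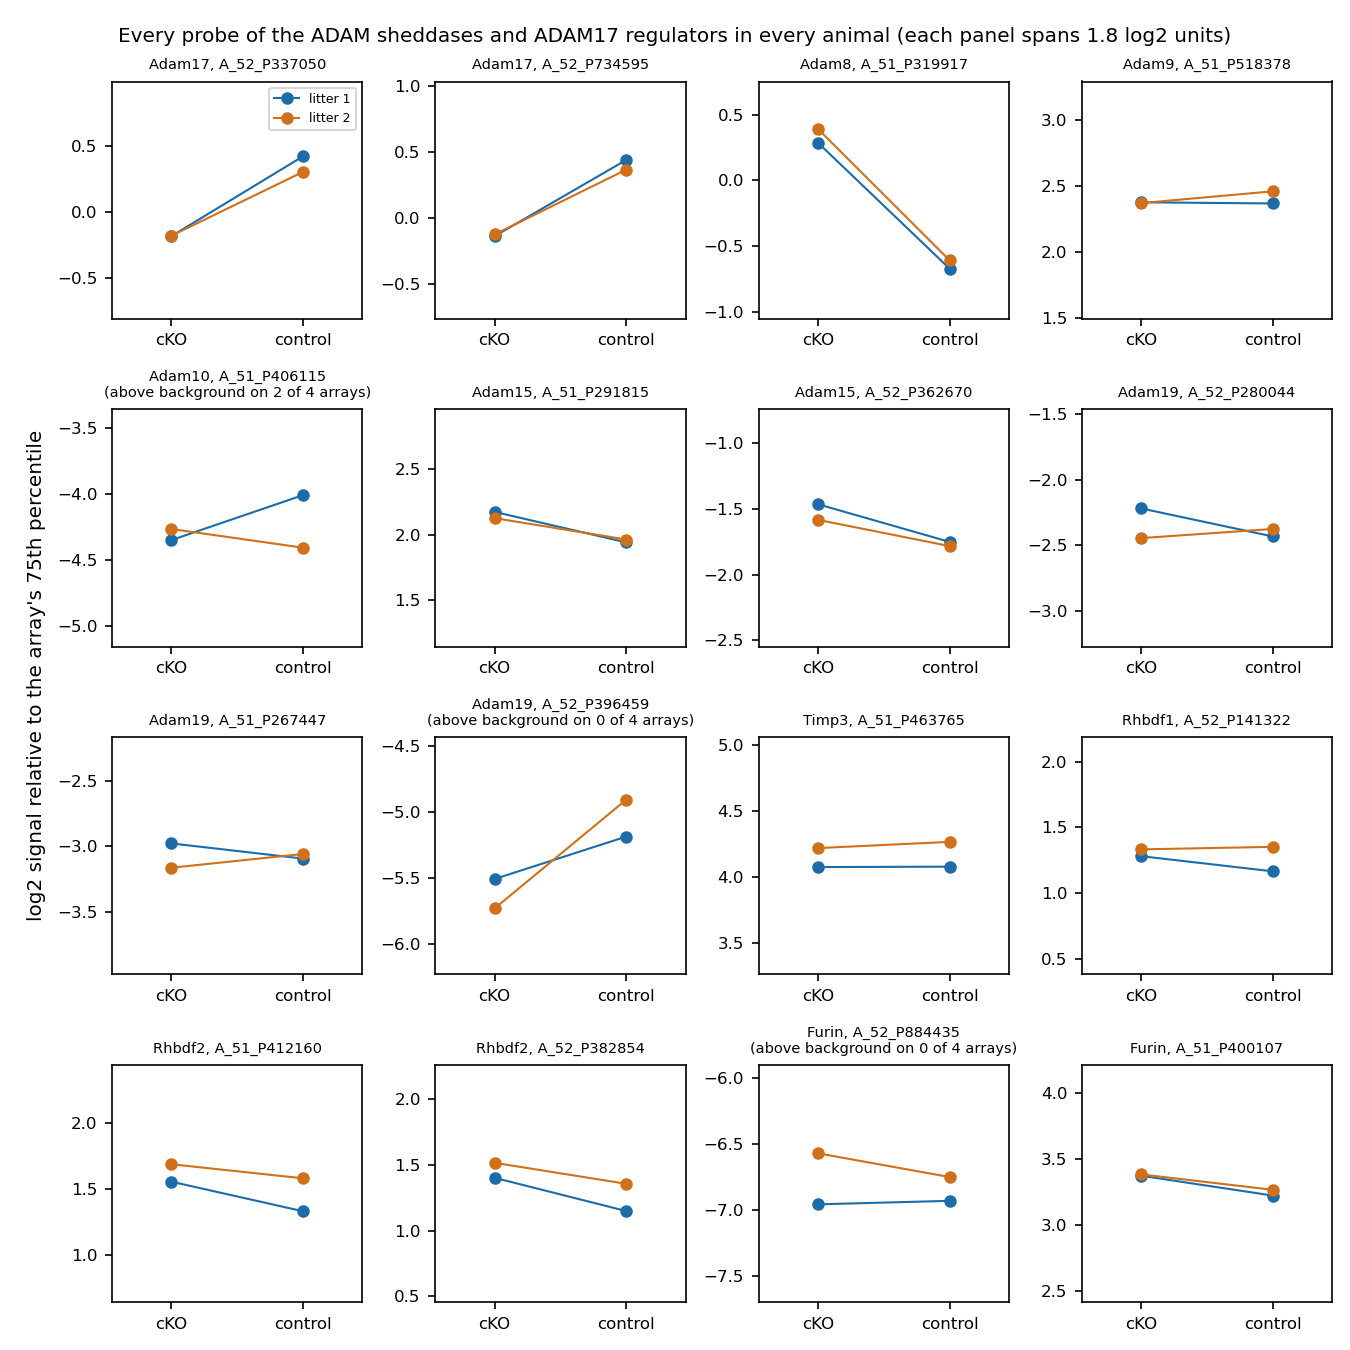
Log2 signal of each of the 16 probes (y axis, relative to the array's 75th percentile) in cKO and control skin, with 1 point per animal, a line joining littermates, and the gene and Agilent probe ID above each panel. Each panel is centred on its own probe and spans the same height, so slopes can be compared: Adam17 slopes one way with both probes and Adam8 the other way, while the lines of the 2 litters run in opposite directions for Adam9, Adam10, Rhbdf1, the 2 passing Adam19 probes and the dim Furin probe.

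Adam8 showed the largest difference of the 9 genes tested. It encodes an ADAM best known from leukocytes, where it is induced in inflammation and sheds adhesion proteins. Its single probe measured 0.29 and 0.39 in cKO skin of litters 1 and 2, against -0.67 and -0.61 in the controls. The groups lay far apart compared with the gaps between animals of the same genotype. The signal averaged 0.34 ± 0.074 in cKO skin and -0.64 ± 0.045 in control skin (SD, n = 2 each), which is 1.97-fold higher (1.94-fold in litter 1 and 2.00-fold in litter 2). The difference was 0.98 with a 95% interval of 0.73 to 1.22, and 1.88% of all genes tested differed by more.

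Adam8 missed the threshold of 0.05 (adjusted p = 0.0534, limma), and it stood on rank 76 of 15552 genes by p. Its adjusted p ranged from 0.0204 to 0.729 over 13 other ways of processing. Adam8 passed in 2 of them. These were a trended and robust variance prior (adjusted p = 0.0204, limma) and normexp background correction without spots below their local background (adjusted p = 0.0315, limma). The normexp setting was chosen after seeing the data. Over all genes these fits called 215 and 135, against 53 in the main fit. With litter in the model the adjusted p of Adam8 was 0.0925 (limma).

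Most tested markers of myeloid cells, which are known to make Adam8, lay higher in cKO skin, but this was not particular to them. Median differences were 0.61 for fat cell, 0.41 for suprabasal keratinocyte and 0.35 for mast cell markers. They were 0.28 for skeletal muscle and 0.16 for basal keratinocyte markers. Fibroblast (-0.15), endothelial (-0.075) and red cell (-0.43) markers had negative medians. Over all genes, 72.5% had the same sign in both litters, counting either direction, and 16.2% had an unadjusted p under 0.05 (limma). Of the 8 tested macrophage and dendritic cell markers, 7 had more signal in cKO skin in each litter. An unadjusted p under 0.05 was reached by 0 of the 8 markers (limma). Their median difference was 0.28, from 0.0049 without control replicate 2 to 0.47 without control replicate 1 when 1 animal was left out. Their summed signal was 27.0 and 23.9 in cKO skin against 22.5 and 14.6 in controls, and Itgam did not pass the filter. The 6 general leukocyte markers summed to 4.25 and 3.83 in cKO skin against 3.98 and 3.05 in controls. Of the 6, 4 lay higher and 0 lower in each litter. The median difference was 0.18, and it ranged from -0.086 to 0.42 with 1 animal left out. Single differences ran from 0.020 ± 0.14 (SE) for Ptprc, the pan-leukocyte gene, to 0.39 ± 0.30 (SE) for Itgb2. Of 7 neutrophil markers on the array only Camp passed the filter, and the defining genes Mpo, Elane, Ngp, Ltf, Csf3r and Cxcr2 did not. Camp was dim, at -3.67 and -3.17 in cKO skin against -4.47 and -3.87 in controls. It differed by 0.75 ± 0.28 (SE; adjusted p = 0.309, limma). T cell markers lay lower in cKO skin in each litter for 5 of 6 genes. One of the 5, Cd2, was not well above background in cKO skin and passed the filter only through the controls. Of 4 stress keratins, which activated keratinocytes make, Krt6a, Krt6b and Krt16 lay higher and Krt17 lower in cKO skin in each litter. The median difference of the 4 was 0.48. Their summed signal was 390 and 402 in cKO skin against 395 and 407 in controls. That sum rests mostly on Krt17, at 8.39 and 8.46 in cKO skin against 8.49 and 8.54 in controls. Krt6a measured 5.02 and 4.75 in cKO skin against 4.03 and 4.14 in controls. None of the genes on these lists passed over all genes, and their part in the Adam8 value was not tested.

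**Figure D2:**
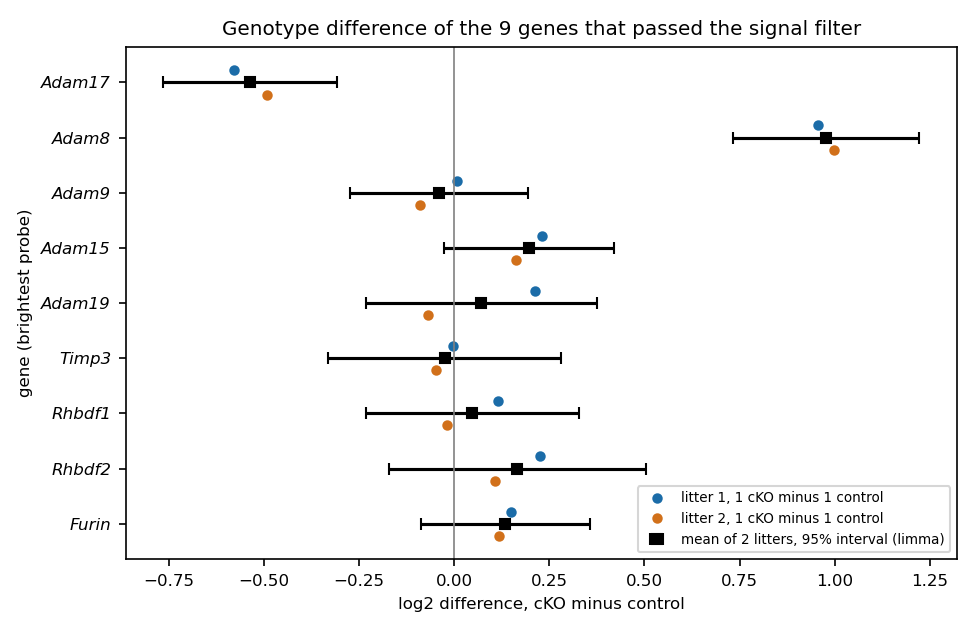
Difference between cKO and control skin (x axis, log2) for the 9 genes that passed the filter, each read by its brightest probe. Squares are the mean of 2 litters with the 95% interval of the limma fit, and circles are the single litters. Only the intervals of Adam17 (-0.76 to -0.31) and Adam8 (0.73 to 1.22) leave out 0.

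Adam15, whose product carries both protease and integrin-binding activity, was slightly higher in cKO skin with both of its probes. The brighter one, at chr3:89143688-89143747, measured 2.17 and 2.12 in cKO skin against 1.94 and 1.96 in the controls. The other measured -1.47 and -1.58 in cKO skin against -1.75 and -1.78 in the controls. Its 60 bases span 200 bases of the genome, chr3:89147875-89148074, so it crosses a splice junction. The groups did not overlap with either probe, and the differences were 0.20 (95% interval -0.026 to 0.42, gene-level fit) and 0.24 (95% interval -0.0086 to 0.49, fit over all probes). Neither passed (adjusted p = 0.355 over genes and 0.336 over probes, limma).

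Adam9, a sheddase that is broadly expressed, measured 2.38 and 2.37 in cKO skin against 2.37 and 2.46 in the controls. The groups overlapped, and the difference was -0.040 with a 95% interval of -0.27 to 0.19 (adjusted p = 0.849, limma). A change of Adam9 as large as that measured for Adam8 lies outside this interval.

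Adam19, known from heart development and from neuregulin processing, was dim and inconsistent between litters. Its brightest probe, at chr11:45960412-45960471, measured -2.22 and -2.44 in cKO skin against -2.43 and -2.38 in the controls. A probe 5′ of it, at chr11:45959545-45959604, measured -2.98 and -3.16 in cKO skin against -3.09 and -3.06 in the controls. With both, cKO skin was higher in litter 1 and lower in litter 2, and the differences were 0.072 (95% interval -0.23 to 0.38; adjusted p = 0.793 over genes, limma) and 0.0055 (adjusted p = 0.986 over probes, limma). The third probe, at chr11:45952365-45952424, was not well above background on any array and has no fold.

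Adam10, the closest relative of ADAM17 and the main sheddase of Notch receptors in the epidermis, could not be tested. Its only probe, at chr9:70625964-70626022 and named from a kuzbanian cDNA, was well above background on 1 of 2 cKO arrays and on 1 of 2 control arrays. It measured -4.35 and -4.26 in cKO skin against -4.01 and -4.41 in the controls, with differences of -0.34 in litter 1 and 0.14 in litter 2. At this signal a difference in Adam10 was not measurable.

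The regulators of ADAM17 gave no difference that passed. The iRhoms escort ADAM17 to the cell surface. Rhbdf2, the form best known from immune cells and keratinocytes, measured 1.56 and 1.69 in cKO skin against 1.33 and 1.58 in the controls with its brighter probe, at chr11:116459749-116459808. Its second probe, at chr11:116459516-116459575, measured 1.40 and 1.51 in cKO skin against 1.15 and 1.36 in the controls. The cKO value was higher within each litter with both probes, but the brighter probe's groups overlapped because litter 2 lay above litter 1 in both genotypes. The differences were 0.17 (95% interval -0.17 to 0.50; adjusted p = 0.575 over genes, limma) and 0.21 (adjusted p = 0.478 over probes, limma).

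Rhbdf1, the more widely expressed iRhom, measured 1.28 and 1.33 in cKO skin against 1.17 and 1.35 in the controls at chr11:32110420-32110479. The groups overlapped, and the difference was 0.048 (95% interval -0.23 to 0.33; adjusted p = 0.850, limma). Timp3, the inhibitor with the strongest known action on ADAM17, measured 4.08 and 4.22 in cKO skin against 4.08 and 4.27 in the controls at chr10:85811696-85811755. For Timp3 the litters lay further apart than the genotypes: litter 2 was above litter 1 by 0.14 in cKO skin and by 0.19 in control skin, while the genotype difference was -0.025 (95% interval -0.33 to 0.28; adjusted p = 0.933, limma).

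Furin, which removes inhibitory prodomains from many proteins, measured 3.37 and 3.38 in cKO skin against 3.22 and 3.27 in the controls with probe 1. The groups did not overlap, but the difference of 0.13 was small (95% interval -0.088 to 0.36; adjusted p = 0.501, limma). Probe 2 carries the name Furin in the files but reads the strand opposite to probe 1, 16950 bases away from it, and is filed under an unclassified cDNA. RefSeq places Furin on the minus strand in GRCm38, so probe 2 does not lie on the annotated strand of the gene. It was not well above background on any array, at -6.96 and -6.57 in cKO skin and -6.93 and -6.75 in the controls, and the Furin values rest on probe 1 alone.

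Of the 9 genes tested, 0 passed an adjusted p of 0.05, where 0.341% of all 15552 genes did (0.0707% with cKO higher and 0.270% with cKO lower). At an unadjusted p under 0.05 there were 2 of 9, Adam17 and Adam8, where 16.2% of all genes lay below it. Of the 13 probes tested, 0 passed over 22190 probes, against 0.158% of all. The groups did not overlap for 4 of the 9 genes, 3 with cKO higher (28.0% of all genes) and 1 with cKO lower (21.4%), which is close to the 49.4% of all genes in either direction. The sign was the same in both litters for 6 of 9, against 72.5% of all genes. The median difference was 0.072 over the 9 genes and 0.025 over all genes. Every gene with 2 tested probes (Adam17, Adam15, Adam19 and Rhbdf2) gave the same sign with both. For Adam19 1 of these differences was only 0.0055, and the Adam17 probes lie 48 bases apart. The share over all genes with 2 tested probes was not counted.

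**Figure D3:**
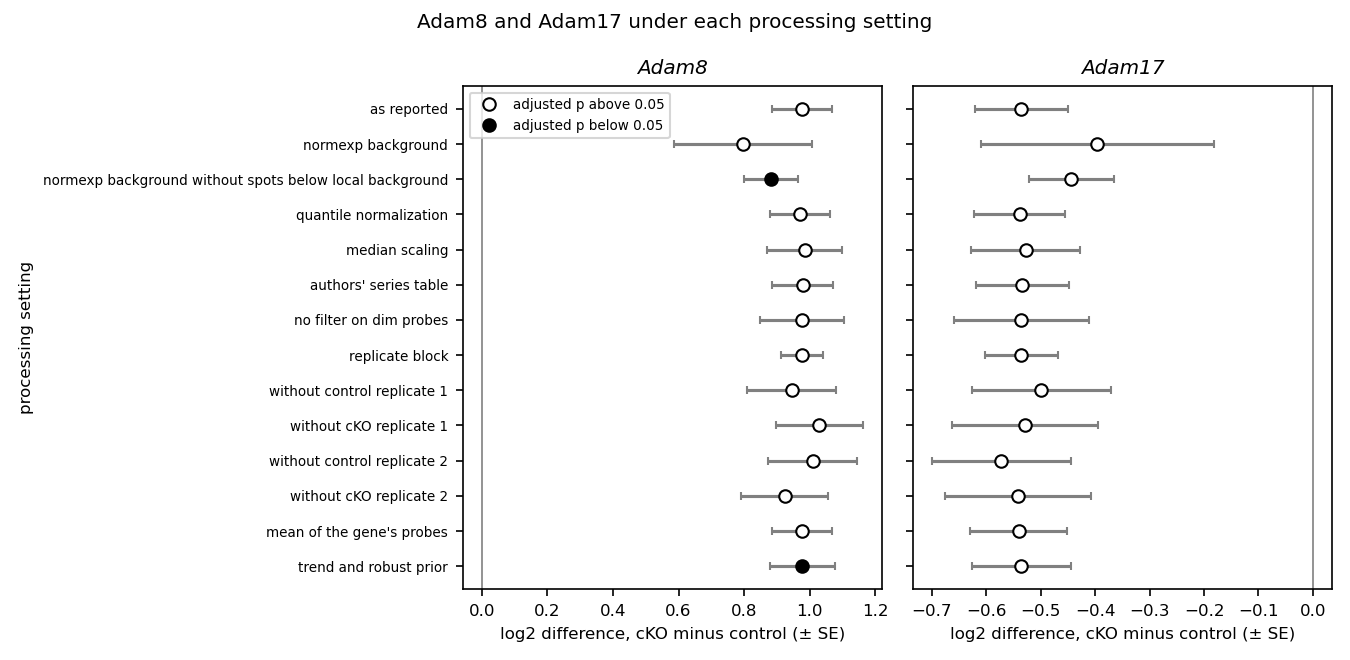
Difference between cKO and control skin (x axis, log2, with its SE) for Adam8 and Adam17 under each way of processing (y axis). Filled points have an adjusted p below 0.05. Adam8 stayed between 0.80 and 1.03 and crossed the threshold under 2 settings, including a normexp setting chosen after seeing the data. Adam17 stayed between -0.57 and -0.40 and crossed it under none of the 13 alternatives.

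Other genes of the shedding machinery were described through 9 lists that held 86 tested genes. None of the 86 passed over all genes (0 by limma; 16 had an unadjusted p under 0.05, 8 higher and 8 lower in cKO skin, or 18.6% against the 16.2% of all genes). Their median difference was 0.070. The genes with the smallest p in each list are given as values. Leaving out 1 animal turned the sign of the median in 4 of the 9 lists: the TspanC8 genes, both lists of other ADAM genes and the substrates. The other 5 kept their sign but moved by over 1.5 times: 0.045 to 0.13 for the ADAM17 partners, 0.11 to 0.40 for the inhibitors, 0.059 to 0.25 for the convertases, 0.026 to 0.14 for the rhomboid genes and 0.024 to 0.090 for the other sheddases.

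Among 12 other partners and regulators of ADAM17, 6 lay higher and 3 lower in each litter (median 0.091). Frmd8 encodes a FERM-domain protein that binds the iRhoms and keeps ADAM17 stable at the cell surface. It measured 2.62 and 2.64 in cKO skin against 3.09 and 3.13 in the controls, a difference of -0.48 ± 0.083 (SE; adjusted p = 0.126, limma). Plk2, a kinase that phosphorylates ADAM17, differed by 0.39 ± 0.097 (SE).

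The 6 TspanC8 tetraspanins, which escort ADAM10 out of the endoplasmic reticulum, split evenly, as 2 lay higher and 2 lower in each litter (median 0.061). Tspan33 measured 0.037 and 0.064 in cKO skin against 0.68 and 0.77 in the controls, a difference of -0.68 ± 0.088 (SE; adjusted p = 0.0870, limma). Tspan10 differed by 0.31 ± 0.12 (SE). As Adam10 itself was not measurable, its escorts cannot be set beside it here.

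Of the 5 other inhibitors, 3 lay higher and 2 lower in each litter (median 0.25). Timp1, a secreted inhibitor known to be induced in wounded skin, measured 0.080 and -0.24 in cKO skin against -0.60 and -0.76 in the controls, a difference of 0.60 ± 0.15 (SE; adjusted p = 0.195, limma). Timp2 differed by -0.67 ± 0.32 (SE; adjusted p = 0.402, limma), and in both genotypes litter 1 lay above litter 2.

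Of 8 other proprotein convertases, 5 lay higher and 2 lower in each litter (median 0.16). Pcsk2, a convertase of neuroendocrine cells, measured 0.35 and 0.73 in cKO skin against -1.09 and -0.79 in the controls, 2.79-fold higher in the fitted values (difference 1.48 ± 0.18, SE; adjusted p = 0.0781, limma). Of 10 other rhomboid family genes, 4 were higher and 3 lower in both litters, with Rhbdd3 at 0.28 ± 0.083 and Rhbdl3 at 0.21 ± 0.084 (SE).

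Most other ADAM genes are testis genes and gave little signal. Of 13 on the array with a catalytic site, 3 passed the filter, with Adam28 at 0.37 ± 0.14 and Adam33 at 0.070 ± 0.19 (SE). Of 13 without one, 4 passed. Adam3, a sperm gene, was not well above background in cKO skin and passed the filter only through the controls, so its p rests on cKO values that are not a measured level, and it is 1 of the 8 lower genes counted above at an unadjusted p under 0.05. Its control signal was -4.21 and -3.17. The mean of these log2 values lay at least 1.98-fold above the mean of the limits on the 2 cKO arrays (adjusted p = 0.199, limma). The limit on a cKO array was the Adam3 signal itself or, where greater, the dimmest signal called well above background there. Adam11 differed by 0.11 ± 0.12 (SE).

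Of 14 other sheddases and gamma-secretase genes, 6 lay higher and 3 lower in each litter (median 0.031). Mmp15, a membrane-type matrix metalloprotease, measured -1.43 and -1.43 in cKO skin against -1.98 and -1.96 in the controls, a difference of 0.55 ± 0.081 (SE; adjusted p = 0.107, limma). Psen2, a catalytic subunit of gamma-secretase, which cuts the stubs that sheddases leave, differed by 0.29 ± 0.087 (SE). Among 24 known ADAM17 substrates, 8 lay higher and 9 lower in each litter (median 0.066). Ngfr, the low-affinity neurotrophin receptor, measured -0.24 and -0.38 in cKO skin against 0.88 and 0.76 in the controls (difference -1.13 ± 0.10, SE; adjusted p = 0.0534, limma). Cx3cl1, a membrane-bound chemokine, measured 2.28 and 2.22 in cKO skin against 1.46 and 1.47 in the controls (difference 0.78 ± 0.083, SE; adjusted p = 0.0628, limma).

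**Figure D4:**
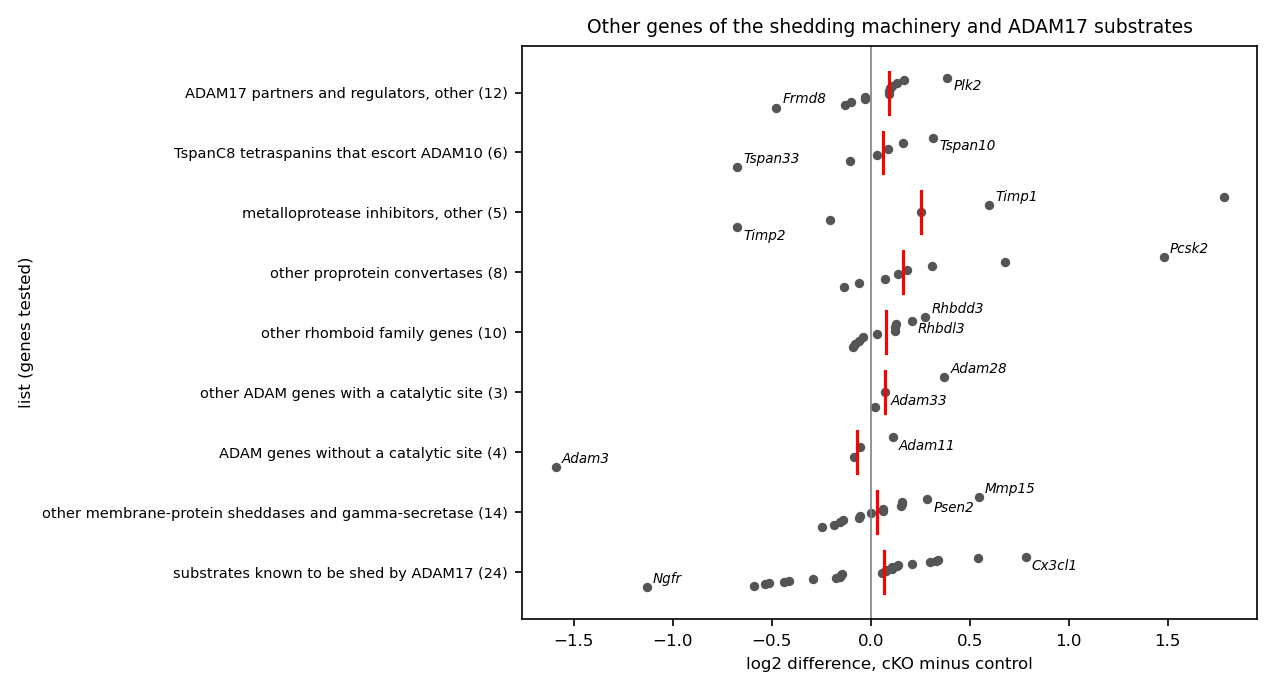
Difference between cKO and control skin (x axis, log2) for each tested gene of 9 lists of the shedding machinery and ADAM17 substrates (y axis, number of genes tested in brackets). Points are genes, red bars are list medians, and the genes with the smallest p are named, up to 2 in each list. List medians lie between -0.070 and 0.25, and 0 of the 86 genes passed an adjusted p of 0.05.

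The genes whose pattern over the 4 arrays was most like that of Adam17, out of 12932 compared, were Tubb6, Ccdc88b and Ccdc167. Likeness was the root mean square distance of values centred on each gene's mean, and it was 0.012, 0.013 and 0.014, where the median gene lay at 0.30. For Adam8 they were Ptges, Krt36 and Trp73, at 0.032 to 0.035 against a median of 0.49. Ptges, an enzyme of prostaglandin E2 synthesis, differed by 0.92 between the genotypes, and Tubb6, a tubulin, by -0.54. These distances describe 4 arrays and were picked as the smallest of 12932, so they lie below the median by selection. They were not tested.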

How the data were processed

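RNA from 4 skin biopsies was labelled with Cy3 and read on Agilent arrays. Per the file headers, the authors' scanner files were made with Feature Extraction 10.7.3.1 (10.5 in the submitters' processing notes). The deposited intensity values are background-subtracted, detrended processed signals. The deposited series table holds log2 values that equal the scaled log2 signal minus each probe's median over arrays (correlation at least 0.99999), and it was an alternative. Control and outlier spots (51 to 66 outliers per array) were left out, log2 processed signals were scaled to each array's 75th percentile, and probes were kept if both arrays of a genotype called them well above background (22190 of 41174). Per gene, the brightest probe entered limma 3.58.1 (R 4.3.3; cKO minus control, no covariate, two-sided, Benjamini-Hochberg over 15552 genes, threshold 0.05), and a second fit took all probes. The prior added 2.37 degrees of freedom. All 4 arrays lay on 1 slide with 1 scan time, per the file headers, so no batch could be tested. The litter numbers in the labels pair the animals, and same-litter deviations correlated at 0.35 across genes. As no statistical model is stated, litter was an alternative. Genes were named through RefSeq (GRCm38.p6) for 26690 probes by accession, 5189 by symbol and 952 by synonym. The remaining 8343 kept the files' names. The 10 genes and all lists were chosen with earlier results of these data known. All 10 genes are named. Of each list, the 2 genes with the smallest p are named as values, except 1 gene that is counted but not reported here. The 3 genes most like Adam17 and Adam8 are named, leaving out clone names and sex-linked genes. The fit was also run on simulated arrays without a litter effect and with changes larger than those of Adam17 and Adam8. That run does not show how the fit behaves with shared litters or smaller changes. The number of arrays limits precision.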

Additional observations from a re-analysis of the deposited data

Results flagged for a closer look

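In 3 of the 9 tested genes the cKO animal lay above its control littermate in one litter and below it in the other. The difference between litters was not tested, since each litter held 1 animal per genotype. Adam9 differed by 0.0088 in litter 1 and by -0.090 in litter 2. The brightest Adam19 probe differed by 0.21 in litter 1 and by -0.069 in litter 2, and the next one by 0.12 and -0.10. Rhbdf1 differed by 0.12 in litter 1 and by -0.019 in litter 2.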

How the results depend on the processing

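The count of genes past the threshold was 0 under 11 of 13 alternatives, and that of probes 0 under 10 of 12 (without the filter over 10 genes and 16 probes). Both were 1, namely Adam8, with the trended and robust prior and with normexp after removal of spots dimmer than their local background, a setting chosen after seeing the data. The count among the 8 genes other than Adam17 was likewise 1 under both. Adam17 stayed negative and short of the threshold under all 13, with adjusted p between 0.0686 and 0.729 (0.111 with the replicate block), and measured -0.57 to -0.50 with 1 replicate left out. Adam8 measured 0.92 to 1.03 then (adjusted p 0.126 to 0.207). Normexp as planned, where 3 spots of cKO replicate 2 lay below their local background (signal minus background down to -27527.5), turned 4 small differences negative: Adam15 to -0.030, Rhbdf1 to -0.13, Rhbdf2 to -0.042 and Furin to -0.073. It also moved Adam19 to 0.54, Timp3 to -0.31 and Adam9 to -0.23. Without those spots the 4 were positive, and the other 3 measured 0.054, -0.054 and -0.021. With 1 replicate left out, signs also turned for Rhbdf1 (-0.045 without control replicate 1, up to 0.14), Adam19 (-0.041 without cKO replicate 1, up to 0.18), Timp3 (-0.12 to 0.069, positive without cKO replicate 1 or control replicate 2) and Adam9 (-0.086 to 0.0057, positive without control replicate 2), and the cause was not tested. Rhbdf2 kept its sign but ranged from 0.041 without control replicate 1 to 0.29 without control replicate 2. Over all genes limma called 53. It called 0 with the replicate block (3706 at an unadjusted p under 0.05), with normexp as planned (423), without the filter (2079), without control replicate 1 (1842) and without control replicate 2 (1750). It called 24 without cKO replicate 2, 80 with quantile normalization, more than that with median scaling, 135 with normexp after the removal of those spots and 215 with the trended and robust prior. The fits with 1 replicate left out tested as many genes and assume that a lone array varies like the other group. Without the filter, the Adam10 difference was -0.10 ± 0.18 (SE). Its probe was well above background on only 1 of 2 arrays of each genotype, so this value is not a measured difference.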

Other observations

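One cKO animal stood apart for Sfrp1, a secreted Wnt regulator that also inhibits ADAM10. The gene was singled out after its values were seen. It measured 3.53 in cKO skin of litter 1 and 1.01 in cKO skin of litter 2, against 0.46 and 0.52 in the controls. The signal in the litter 1 animal was 8.43-fold that of its control littermate, against 1.40-fold in litter 2. The gene did not pass (difference 1.78 ± 0.86, SE; adjusted p = 0.408, limma), and of the 4 fits with 1 animal left out and the fit with litter as a block, it passed in the one without cKO replicate 2, which rests on the litter 1 animal alone.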
